A study of Mus musculus with 53 samples.

Results

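H3K27ac, the acetylation of histone H3 that marks active enhancers and promoters, was compared between DP and SOX2+ cells sorted from the same kind of embryonic stem cell (ESC) culture. The comparison used 3 of the 35 CUT&RUN libraries with a peak list: DP library A, SOX2+ library A and SOX2+ library B. Another of the 10 H3K27ac libraries was kept apart, since its title names DP and its source name SOX2+; it is called the library titled B_DP. In CUT&RUN, an antibody brings micrococcal nuclease to its target and the DNA cut free is sequenced. By the sample labels, every KOSR library came from clone B12 of SGGC, a mouse ESC line in which SOX2 is fused to GFP and GATA6 to mCherry at their own genes, and the cells grew in KnockOut Serum Replacement medium (KOSR). Sorting took DP cells as positive for both reporters and SOX2+ cells as positive for SOX2-GFP alone. The study's methods say that clones B9 and B12 served for all CUT&RUN, which differs from these labels, and the difference was not resolved. By the labels, both groups thus share 1 clone, 1 medium and both reporters, and sorted cells of 1 clone limit how far the values extend to other lines. For orientation, H3K27ac of 2iLIF and NACL ESCs and of nEnd, naive extra-embryonic endoderm, was used, each from clones B9 and B12. 2iLIF holds a MEK inhibitor, the GSK3 inhibitor CHIR99021 and LIF, and NACL holds Activin A, CHIR99021 and LIF. SOX2 and GATA6 libraries of KOSR cells carry the letters A, A1 and B in their titles.

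SOX2 maintains the epiblast and pluripotency program, and GATA6 directs the primitive endoderm (PrE), the extra-embryonic sister lineage in the blastocyst. Active enhancers carry H3K27ac together with H3K4me1, and H3K4me1 can mark an enhancer before it is active. GATA factors bind DNA through a short GATA core, for which AGATAA serves here as a string to search.

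The DP list was far longer than the others, with 76260 peaks against 13514 and 14722 in the SOX2+ libraries and 19185 in the library titled B_DP. The 13514 strongest peaks of each list were therefore used, ranked by max signal, the highest coverage within a peak on the scale of its own library. The lowest max signal kept was 8 in DP, where 1211 of 4084 peaks at that value entered, against 4 and 6 in the SOX2+ libraries. The DP peaks kept were also narrower, with a median of 1234 bp against 1564 and 1578.5 bp. Just inside the limit, the last 1000 DP peaks overlapped a SOX2+ peak in 67.9% of cases, and the next 1000 outside it in 50.5%. Read depth is unknown for all libraries. The IgG controls were not used here.

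Merging the 3 lists with an overlap of at least 1 bp gave 21511 regions. DP only were 4145 regions with a DP peak and no SOX2+ peak, SOX2+ only were 2406 regions with a peak of both SOX2+ libraries and none of DP, and 7887 regions were shared by DP and at least 1 SOX2+ library. Another 7073 regions had a peak of 1 SOX2+ library alone, 3415 of library A and 3658 of library B. The number of regions held by DP alone was thus of the size of those held by a single SOX2+ library. With 1 DP library, no test of a difference between the populations was made, and intervals given below are 95% Clopper-Pearson intervals that cover counting error over regions only. In sorted bulk samples, fewer cells with the mark and less mark per cell cannot be told apart.

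**Figure D1:**
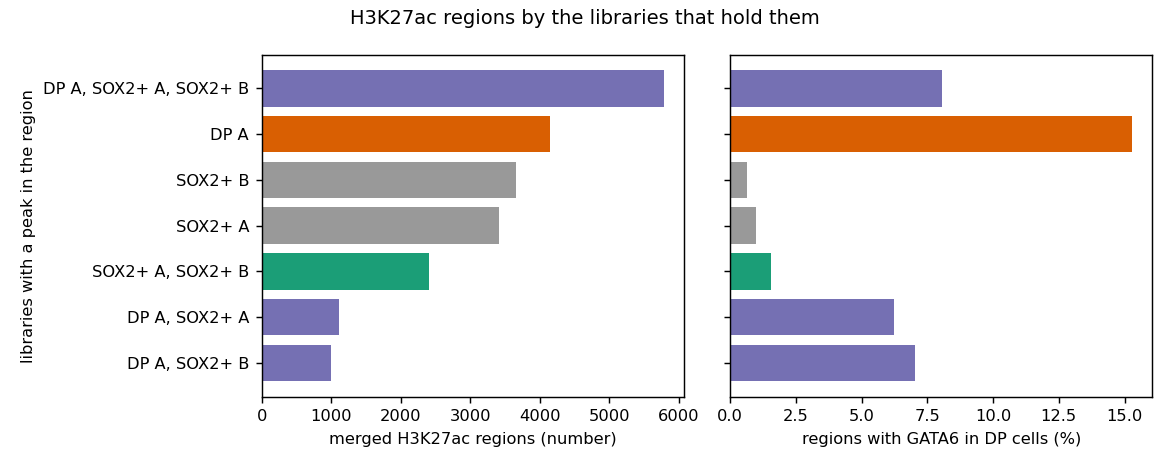
H3K27ac regions by the libraries with a peak in them, from the 13514 strongest peaks of each list. Bars on the left give the number of regions, bars on the right the percentage with a GATA6 peak of at least 2 of the 3 DP GATA6 libraries. Regions of DP A alone numbered 4145 and held GATA6 in 15.3% of cases, against 0.996% and 0.656% for regions of a single SOX2+ library.

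At equal peak numbers, overlap was lower between the populations than between the SOX2+ libraries, and the full lists turned this order. Of the SOX2+ A peaks, 65.8% (65.0 to 66.6) lay at a SOX2+ B peak and 54.5% (53.6 to 55.3) at a DP peak. Of the SOX2+ B peaks, 64.9% lay at a SOX2+ A peak and 53.2% at a DP peak. Against all deposited peaks of the other library, SOX2+ A peaks lay at SOX2+ B in 67.1% and at DP in 87.7% of cases, and SOX2+ B peaks at SOX2+ A in 64.9% and at DP in 86.2%, the DP list being the longest. DP peaks overlapped SOX2+ A in 60.2% and SOX2+ B in 59.5% of cases, and either of them in 69.3% (68.5 to 70.1). As bases in common over bases covered by either, the SOX2+ pair shared 0.404, and DP shared 0.345 with SOX2+ A and 0.336 with SOX2+ B. The strongest peaks were shared most often. Among the first 1000 DP peaks, 94.4% lay at a SOX2+ peak, against 56.0% of those ranked 10001 to 13514. The first 1000 peaks of SOX2+ A and of SOX2+ B lay at a peak of either other library in 99.9% and 99.7% of cases. For their peaks ranked 10001 to 13514 the shares were 43.2% and 42.5%, below that of DP.

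Absence from the strongest peaks was not absence of the mark. Of the 2406 SOX2+-only regions, 86.2% overlapped a weaker peak of the full DP list, and 333 remained when all deposited DP peaks counted. Of the 4145 DP-only regions, 4095 remained when all SOX2+ peaks counted. The SOX2+ lists end at or near the 13514 peaks used, so the same question could not be put to them at lower signal.

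The library titled B_DP lay between the populations on several measures. Of its 13514 strongest peaks, 58.0% (57.2 to 58.8) lay at a DP peak, 61.6% (60.7 to 62.4) at a SOX2+ A peak and 63.3% (62.5 to 64.1) at a SOX2+ B peak. Read the other way, its peaks were met by 65.9% of DP, 63.2% of SOX2+ A and 64.5% of SOX2+ B peaks. Its base overlap was 0.381 with DP, 0.378 with SOX2+ A and 0.391 with SOX2+ B, so no order was clear from pairwise overlap at equal numbers. Against full lists, 90.0% of its strongest peaks lay at DP, 61.6% at SOX2+ A and 64.7% at SOX2+ B, and the share at DP less that at SOX2+ turned from -4.42 to 29.5 percentage points with all peaks of every library and to 6.14 at equal covered bases. Regions that set DP A and SOX2+ A apart gave a comparison that SOX2+ B, a library with the same letter and labels that match, could also enter. Whether a letter marks one experiment is not stated in the labels. Of 5378 regions in DP A and not in SOX2+ A, the library titled B_DP covered 37.3% (36.01 to 38.6) and SOX2+ B 22.9% (21.8 to 24.1). Of 6150 regions in SOX2+ A and not in DP A, it covered 37.1% (35.8 to 38.3) and SOX2+ B 44.5% (43.2 to 45.7). Its H3K27ac thus met the DP-side regions more often than the SOX2+ library did, and the SOX2+-side regions less often. At the DP-side regions that also held GATA6 in DP cells, the distance was wider, with 39.4% (35.8 to 43.1) against 10.7% (8.53 to 13.2) of 710 regions.

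**Figure D2:**
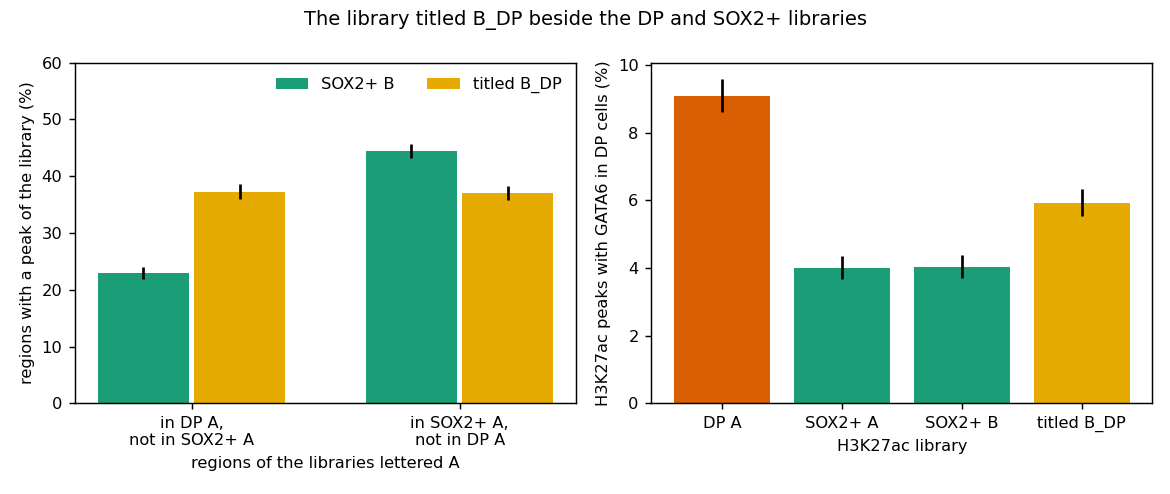
Left, the percentage of regions found in only 1 of the libraries lettered A (DP A or SOX2+ A) that also had a peak of SOX2+ B or of the library titled B_DP. Right, the percentage of the 13514 strongest H3K27ac peaks of each library that overlapped GATA6 in DP cells. Error bars are 95% Clopper-Pearson intervals. The library titled B_DP stands at 5.93%, between the SOX2+ libraries (4.01% and 4.03%) and DP A (9.09%).

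Counted as a second DP library, with a peak required in both, the library titled B_DP would leave 947 DP-only regions. Counted as a SOX2+ library beside the other two, it would leave 2979. Everything below rests on DP library A and on SOX2+ libraries A and B, without it, unless it is named.

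The sequences around the H3K27ac maximum of the strongest regions that lie at least 1 kb from a start site of any annotated gene, coding or not, and outside exons are printed first, since the classes differ in their GATA strings. Each is 200 bases of GRCm38, plus strand, from RefSeq, and capitals mark the strings AGATAA (for GATA factors), CATTGT (SOX), ATGCAAAT (OCT), TCAAGGTCA (ESRRB), CCACACCC (KLF), TGACTCA (AP-1), GGAATG (TEAD) and CCAAT (NFY) on either strand. The 3 strongest DP-only regions of this kind were nearest to Btrc (chr19:45360626-45360825), Ndufb3 (chr1:58613899-58614098) and Hmga2 (chr10:120485802-120486001). The Btrc sequence holds a KLF and a GATA string, Ndufb3 an NFY and Hmga2 a TEAD string.
Btrc: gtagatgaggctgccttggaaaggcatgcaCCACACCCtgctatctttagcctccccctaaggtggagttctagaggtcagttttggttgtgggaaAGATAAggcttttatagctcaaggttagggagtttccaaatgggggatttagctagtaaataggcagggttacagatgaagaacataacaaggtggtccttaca
Ndufb3: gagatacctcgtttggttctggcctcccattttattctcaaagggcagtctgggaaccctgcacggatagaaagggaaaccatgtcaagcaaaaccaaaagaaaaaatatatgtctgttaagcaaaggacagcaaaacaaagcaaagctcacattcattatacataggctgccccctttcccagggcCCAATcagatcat
Hmga2: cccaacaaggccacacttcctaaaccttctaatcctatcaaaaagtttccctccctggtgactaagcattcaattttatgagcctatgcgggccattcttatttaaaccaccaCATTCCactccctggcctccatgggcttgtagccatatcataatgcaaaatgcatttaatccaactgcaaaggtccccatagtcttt

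Abcc5 (chr16:20448230-20448429) and Mgat5 (chr1:127287557-127287756) are added, after their values were seen, as the strongest DP-only regions of this kind with GATA6 peaks in both DP cells and nEnd. Abcc5 holds 2 GATA strings and Mgat5 holds 3.
Abcc5: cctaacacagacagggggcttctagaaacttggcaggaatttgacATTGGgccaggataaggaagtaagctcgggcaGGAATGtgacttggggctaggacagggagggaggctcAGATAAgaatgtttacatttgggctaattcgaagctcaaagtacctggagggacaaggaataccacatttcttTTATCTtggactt
Mgat5: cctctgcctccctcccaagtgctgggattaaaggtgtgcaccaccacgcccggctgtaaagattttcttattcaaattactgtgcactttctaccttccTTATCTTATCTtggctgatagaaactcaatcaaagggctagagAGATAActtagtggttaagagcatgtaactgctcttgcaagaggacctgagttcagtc

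Of the strongest SOX2+-only regions of this kind, those nearest to Prune1 (chr3:95270869-95271068) and Fam189a1 (chr7:65064100-65064299) are shown. Neither holds the GATA string. Fam189a1 holds a SOX string and Prune1 no string of the 8.
Prune1: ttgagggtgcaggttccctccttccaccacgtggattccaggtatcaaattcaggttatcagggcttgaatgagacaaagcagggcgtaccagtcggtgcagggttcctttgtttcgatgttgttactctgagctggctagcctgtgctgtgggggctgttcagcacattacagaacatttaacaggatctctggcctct
Fam189a1: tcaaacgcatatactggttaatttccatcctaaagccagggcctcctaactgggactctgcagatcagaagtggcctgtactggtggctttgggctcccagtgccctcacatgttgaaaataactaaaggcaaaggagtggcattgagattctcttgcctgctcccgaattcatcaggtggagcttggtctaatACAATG

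For the shared regions, Scn3b (chr9:40239874-40240073) and Cox18 (chr5:90245513-90245712) are shown. Scn3b holds an OCT and a TEAD string, and Cox18 a GATA, an NFY and 2 SOX strings.
Scn3b: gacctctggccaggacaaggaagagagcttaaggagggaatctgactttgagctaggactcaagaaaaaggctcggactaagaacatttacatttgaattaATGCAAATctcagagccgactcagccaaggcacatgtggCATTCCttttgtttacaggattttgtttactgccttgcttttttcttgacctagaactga
Cox18: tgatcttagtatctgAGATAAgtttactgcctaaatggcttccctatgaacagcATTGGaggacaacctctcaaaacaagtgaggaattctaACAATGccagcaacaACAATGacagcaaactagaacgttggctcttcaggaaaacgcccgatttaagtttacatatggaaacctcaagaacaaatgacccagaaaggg

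GATA6, which the region classes did not use, lay far more often at DP-only than at SOX2+-only regions. A GATA6 peak of DP library A was present at 23.8% of DP-only regions (22.5 to 25.1), at 3.57% of SOX2+-only regions (2.87 to 4.40) and at 15.2% of shared regions (14.4 to 16.01). DP library A1 gave 15.6%, 1.75% and 8.08% in the same order. DP library B, whose list is the shortest, gave 7.60%, 0.665% and 3.23%. All 3 libraries thus ordered the classes alike. GATA6 of nEnd was present at 23.9% (clone B9) and 34.9% (clone B12) of DP-only regions, against 8.81% and 12.3% of SOX2+-only and 21.9% and 32.0% of shared regions. In nEnd, DP-only and shared regions were therefore close, and SOX2+-only regions were low.

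With a peak of at least 2 of the 3 DP GATA6 libraries required, 634 DP-only regions held GATA6, which is 15.3% (14.2 to 16.4). The same was true of 37 SOX2+-only regions, or 1.54% (1.09 to 2.11), and of 604 shared regions, or 7.66% (7.08 to 8.27). The DP-only regions were the narrowest, with a median of 808 bp against 2016 bp for SOX2+ only and 2436 bp for shared regions. Per Mb of region, DP-only regions held 169 DP GATA6 regions, SOX2+-only regions 6.82 and shared regions 27.8. Away from start sites, by at least 1 kb, the shares were 18.1%, 1.58% and 10.5%. Without DP GATA6 library A the DP-only and SOX2+-only shares were 7.29% and 0.499%, and without library A1 they were 7.45% and 0.582%, since a region then needs the short list of library B. With all deposited H3K27ac peaks, where DP-only regions number 55192, the shares were 2.36% and 1.10%.

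Seen from GATA6, the 3 DP libraries placed 12.9%, 17.8% and 23.6% of their peaks (A, A1 and B) at DP-only regions and 1.12%, 1.10% and 1.37% at SOX2+-only regions. At shared regions they placed 17.1%, 18.7% and 20.6%. With 1391 peaks from each library, the DP-only shares drew together at 25.9%, 25.8% and 23.6%, a mean of 25.1% ± 1.31 (SD, n = 3). DP-only regions covered 3.91 Mb and SOX2+-only regions 5.43 Mb, so the smaller set of bases held more GATA6 peaks.

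SOX2 was counted in the same ways. In SOX2+ cells, SOX2 was present at 27.1%, 29.9% and 19.8% of SOX2+-only regions (libraries A, A1 and B) and at 17.9%, 20.3% and 11.9% of DP-only regions. In DP cells the order turned in A and A1, with 8.15% and 9.02% of SOX2+-only and 14.9% and 15.9% of DP-only regions. DP library B, with 1378 SOX2 peaks in all, gave 3.37% and 3.26%, whose intervals overlap. Shared regions were above both classes in every library, at 18.5%, 20.01% and 7.58% in DP cells and 34.9%, 40.0% and 25.99% in SOX2+ cells. At the 634 DP-only regions with GATA6, SOX2 of DP cells was present in at least 2 of 3 libraries at 42.3%, against 6.38% of the other 3511. In SOX2+ cells SOX2 was present at 23.3% and 14.95% of the same regions.

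These shares per region do not take account of width, and SOX2+-only regions are the wider. Seen from SOX2 in DP cells, 13.2%, 12.8% and 10.2% of all peaks (A, A1 and B) lay at DP-only and 4.18%, 4.25% and 6.02% at SOX2+-only regions. In SOX2+ cells the shares of all peaks were 4.57%, 4.27% and 4.83% at DP-only and 4.41%, 4.12% and 5.04% at SOX2+-only regions, so SOX2 of SOX2+ cells had no common order there. With the 1378 strongest peaks of each library, they were 4.43%, 5.37% and 4.64% against 10.5%, 9.00% and 8.42%, an order that all 3 libraries shared.

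**Figure D3:**
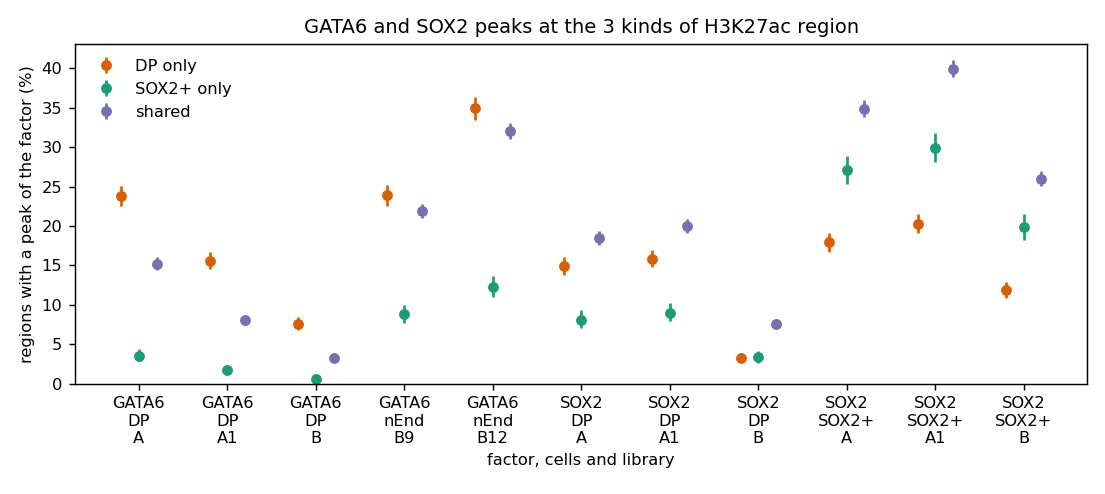
Percentage of DP-only (4145), SOX2+-only (2406) and shared (7887) H3K27ac regions that overlap a peak of each GATA6 or SOX2 library, all deposited peaks of the factor used. Bars are 95% Clopper-Pearson intervals and libraries differ in their number of peaks. GATA6 of DP cells was highest at DP-only regions in each of the 3 libraries, and SOX2 of SOX2+ cells was higher at SOX2+-only than at DP-only regions in each of the 3.

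Sequence around the maxima differed in the same classes. In the 500 bp around the strongest maximum, AGATAA was found on either strand in 35.0% of DP-only regions (33.6 to 36.5), 21.7% of SOX2+-only regions (20.02 to 23.4), 24.4% of shared regions (23.4 to 25.3) and 26.2% of all 21511 regions. It was found in 76.3% (72.8 to 79.6) of DP-only regions with GATA6 and in 27.6% (26.1 to 29.1) of those without. CCACACCC (KLF) was found in 11.03%, 5.11% and 7.85% of DP-only, SOX2+-only and shared regions, against 7.21% of all. GGAATG (TEAD) was found in 35.6%, 25.4% and 30.6%, against 29.2% of all. The strings for SOX (24.6%, 24.4% and 21.8%) and AP-1 (13.1%, 13.8% and 13.3%) were about as frequent in DP-only as in SOX2+-only regions. ATGCAAAT (OCT) was found in 4.66%, 3.41% and 3.21%, TCAAGGTCA (ESRRB) in 4.37%, 3.16% and 4.32%, and CCAAT (NFY) in 50.6%, 44.2% and 46.3%. Over whole regions AGATAA had 0.818 matches per kb in DP only, 0.612 in SOX2+ only and 0.591 in shared regions. A match is a description of the sequence and not a bound site.

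DP-only regions were less often acetylated in other ESC cultures than SOX2+-only regions. With 13514 peaks from each library and a peak of both clones required, H3K27ac of 2iLIF was present at 28.3% of DP-only regions (26.9 to 29.7), 52.2% of SOX2+-only (50.2 to 54.3) and 74.9% of shared regions (73.9 to 75.8). H3K27ac of NACL was present at 28.9%, 61.9% and 78.6%. H3K27ac of nEnd was present at 33.8% (32.4 to 35.3), 27.8% (26.1 to 29.7) and 51.2% (50.1 to 52.3). Over all 21511 regions the shares were 48.5% in 2iLIF, 52.7% in NACL and 36.2% in nEnd, so DP-only regions were below all regions in each of the 3 cultures, nearest to them in nEnd. At least 1 kb from start sites the nEnd shares were 27.5%, 21.2% and 30.1%. DP-only regions with GATA6 stood further from the ESC cultures, with 17.4% in 2iLIF, 17.2% in NACL and 42.3% in nEnd. Regions of a single SOX2+ library, the spread within SOX2+ cells, gave 29.7% in 2iLIF, 34.5% in NACL and 23.7% in nEnd. Their low 2iLIF and NACL shares are near those of DP-only regions, while their nEnd share is below it. SOX2+ only was defined from 2 libraries and DP only from 1, and the part of this in the contrast was not tested. With all deposited peaks of the other cultures, H3K27ac of 2iLIF was present at 82.8% of DP-only, 97.7% of SOX2+-only and 99.1% of shared regions, and H3K27ac of nEnd at 41.2%, 39.3% and 60.7%, so the nEnd shares of DP-only and SOX2+-only regions then overlapped in their intervals. With equal covered bases in place of equal numbers, the nEnd share of DP-only regions was 4.48%.

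H3K4me1 was more even. With 58085 peaks from each library, H3K4me1 of DP cells (A) was present at 83.9% of DP-only, 81.1% of SOX2+-only and 85.9% of shared regions. H3K4me1 of SOX2+ A was present at 63.6%, 87.7% and 88.4%, and of SOX2+ B at 65.3%, 87.7% and 87.5%. Regions of a single SOX2+ library gave 64.7% and 64.3%, near the values of DP-only regions, and 58.9% in DP cells. Over all 21511 regions it was 76.1% in DP cells and 75.8% and 75.6% in SOX2+ A and B, so DP-only regions were above all regions in DP cells and below them in SOX2+ cells. The SOX2+ A share of DP-only regions rose with their width, from 51.4% up to 500 bp to 83.3% above 2000 bp. DP-only regions are the narrowest class, and the part of width in this contrast was not tested. The H3K4me1 library titled B_DP, whose labels conflict in the same way, gave 75.3%, 87.2% and 86.2%.

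**Figure D4:**
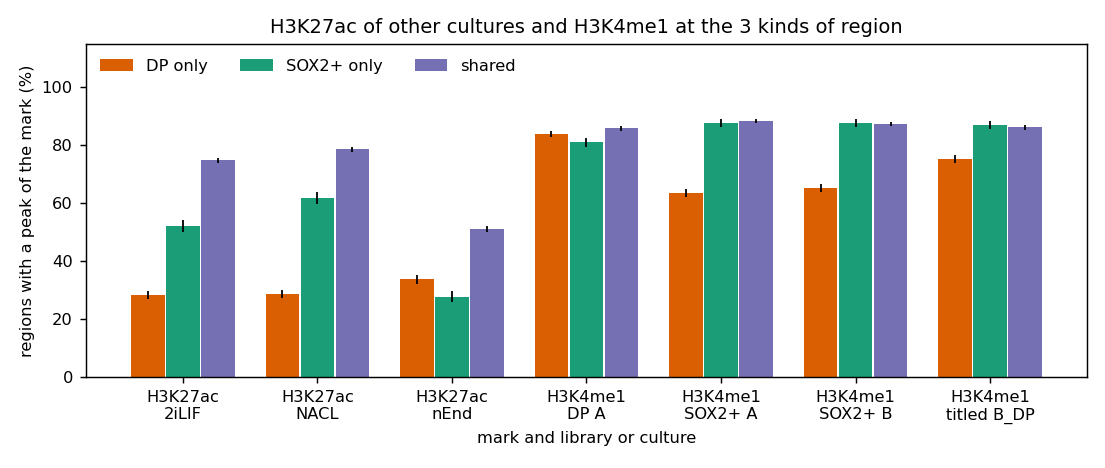
Percentage of DP-only, SOX2+-only and shared regions with H3K27ac in 2iLIF, NACL and nEnd (a peak of both clones among the 13514 strongest of each) and with H3K4me1 in sorted KOSR cells (58085 strongest peaks of each library). Error bars are 95% Clopper-Pearson intervals. DP-only regions are lowest in 2iLIF (28.3%), NACL (28.9%) and SOX2+ H3K4me1 (63.6% and 65.3%), and H3K4me1 of DP cells covers all 3 classes to a like extent.

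DP-only regions were also placed differently in the genome. A start site lay within 1 kb of 20.8% of DP-only, 18.6% of SOX2+-only and 42.7% of shared regions. The maximum fell in an intron in 40.0% of DP-only and 57.2% of SOX2+-only regions, and between genes in 37.5% and 22.2%. The median distance from the maximum to the nearest protein-coding start site was 13.3 kb in DP only, 13.8 kb in SOX2+ only and 5.603 kb in shared regions.

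The strongest DP-only region lay between genes near Btrc, a subunit of the ubiquitin ligase that targets β-catenin (chr19:45357517-45362428). Its DP max signal was 45 (rank 76), it had no peak in either SOX2+ list, and the library titled B_DP had a peak of 17 (rank 650). GATA6 was present there in DP cells. Of the 12 strongest DP-only regions, 8 held GATA6 in DP cells, 6 held GATA6 in both nEnd clones, and 9 had a peak of any strength in the library titled B_DP. None of the 12 had a peak in the full SOX2+ lists, as was true of 4095 of all 4145 DP-only regions, since those lists end at or near the peaks used.

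Hmga2, a chromatin-architecture protein, was nearest to a region of 3315 bp (chr10:120483724-120487038) with a DP max of 36 (rank 185) and a peak of 12 in the library titled B_DP. Klf6, a zinc-finger transcription factor, was nearest to one of 3700 bp (chr13:5824110-5827809), with 32 in DP (rank 279) and 17 in the library titled B_DP. Hint3, a nucleotide hydrolase, was nearest to an intronic region (chr10:30628215-30631667) with 31 in DP (rank 309) and 14 in the library titled B_DP. These 3 held GATA6 in DP cells, and Klf6 and Hint3 also in nEnd.

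Abcc5, a transporter of the ABC family, was nearest to a region (chr16:20447355-20448527) with 34 in DP (rank 236) and 10 in the library titled B_DP. Slc37a1, a sugar-phosphate exchanger of the endoplasmic reticulum, held an intronic region (chr17:31304639-31305659) with 33 and 12. Mgat5, which branches N-glycans, held an intronic region (chr1:127286363-127288750) with 33 and 9. Vnn1, a pantetheinase, had the region at its promoter (chr10:23894187-23895743) with 31 and 13. All 4 held GATA6 in DP cells and nEnd, and of these Slc37a1 and Vnn1 also had H3K27ac in nEnd.

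The other 4 lacked GATA6 in DP cells. Ndufb3, a subunit of respiratory complex I, was nearest to a region of 354 bp (chr1:58613830-58614183) with a DP max of 37, and Gdi2, which keeps Rab GTPases inactive, to one of 377 bp (chr13:3373953-3374329) with 34. Neither had a peak in the library titled B_DP, and Gdi2 lay 164 kb from the region and had no H3K4me1 in any of the 3 KOSR libraries. Sh3d21, an SH3-domain protein, had 33 at its promoter (chr4:126163093-126163849), also without a peak in the library titled B_DP. Fis1, a mitochondrial fission protein, was nearest to an intronic region (chr5:136932403-136933544) with 32 in DP and 14 in the library titled B_DP.

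Width went with the other measures among DP-only regions. The 989 regions of up to 500 bp held GATA6 of DP cells in 9.81% and a peak of the library titled B_DP in 13.2% of cases. The 221 regions wider than 2000 bp did so in 37.1% and 64.7%. H3K4me1 of SOX2+ A was present at 51.4% of the narrowest and 83.3% of the widest, and H3K27ac of nEnd at 27.1% and 39.8%. When only peaks of at least 1 kb were used, there were 1739 DP-only and 2756 SOX2+-only regions, of which 19.8% and 2.18% held GATA6. The part of signal depth in these narrow peaks was not tested.

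Among the 12 strongest SOX2+-only regions, that nearest to Cr2, a complement receptor (chr1:195241178-195242095), had max signals of 31 and 37 in SOX2+ A and B and no peak in DP or in the library titled B_DP. It is 918 bp wide, lies between protein-coding genes and is not among the sequences shown, since a non-coding gene starts within 1 kb. H3K4me1 was present there in DP A and in neither SOX2+ library. Prune1, a phosphodiesterase, held an intronic region of 4731 bp (chr3:95268969-95273699) with 22 and 19, against 6 in DP (rank 24886) and 9 in the library titled B_DP.

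Hmga1, the sister gene of Hmga2, had a SOX2+-only region at its promoter (chr17:27553989-27558690) with 22 and 16 against 8 in DP (rank 14637). Tbl1xr1, a corepressor subunit, held an intronic region of 5640 bp (chr3:22295552-22301191) with 15 and 19 against 7 in DP. Nup160, a nuclear pore protein, held one (chr2:90707215-90709196) with 16 and 18 against 4. Others of the 12 were nearest to Fam189a1, Pabpc4l, Gm21887, Hook3, Cib1 and Smad2, the last a transducer of Activin and Nodal signals. GATA6 was present in DP cells at 0 of the 12, SOX2 in SOX2+ cells at 8, and 9 of the 12 had a weaker peak in the full DP list. For Hmga1, Pabpc4l and Cib1 that peak lay just beyond the 13514 used (ranks 14637, 14385 and 13874).

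The strongest shared regions were nearest to Ect2, a regulator of cytokinesis, Scn3b, a sodium channel subunit, Folr1, a folate receptor, Cox18, which assembles cytochrome oxidase, Zfp808, and Ppp1r12a, a myosin phosphatase subunit. At Ect2 (chr3:27149851-27157753) the max signals were 72 in DP, 45 and 56 in SOX2+ A and B and 32 in the library titled B_DP. Ranks of these 6 regions ran from 3 to 24 in DP and from 4 to 29 in the SOX2+ libraries. All 6 had H3K27ac in 2iLIF and NACL and SOX2 in SOX2+ cells, and Ppp1r12a alone of them had GATA6 in DP cells.

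At the reporter genes themselves, the peaks followed the labels of the 3 libraries. Within 50 kb of the Gata6 start site (chromosome 18), DP had 7 peaks, the best at rank 1135 with a max of 21. SOX2+ A and B had 1 peak each, at ranks 8507 and 9322 with a max of 8, and the library titled B_DP had 3, the best at rank 1010 with a max of 16. Of the DP peaks, 6 made DP-only regions, 1 of these at the promoter, and H3K27ac was present in nEnd at all 6. The strongest DP peak lay in the 1 shared region of the window. Around Sox2, SOX2+ A and B had 9 and 6 peaks (best ranks 170 and 88, max 26 and 32), DP had 3 (rank 935, max 23) and the library titled B_DP had 5 (rank 1467, max 14). Both DP and SOX2+ cells thus had strong H3K27ac at Sox2, and DP alone of the 3 had several peaks at Gata6.

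Other PrE genes followed Gata6 in part. Pdgfra, the PDGF receptor of the PrE, had 3 DP-only regions in its window and no other peak among the strongest of the 4 libraries, while the full DP list held 15 peaks there. They had max signals of 12 (chr5:75117979-75118825), 9 (chr5:75137764-75138470) and 12 (chr5:75146098-75147138), all with GATA6 and SOX2 in DP cells, and the last pair with H3K27ac in nEnd. Col4a1, a basement membrane collagen, had 2 in its window with 11 each (chr8:11265976-11267089, and chr8:11309316-11309682 nearest to Col4a2), both with GATA6 in DP cells and H3K27ac in nEnd. Dab2, an endocytic adaptor of the endoderm, had 3 DP-only and 2 shared regions, and the library titled B_DP had 3 peaks there. Gata4, a GATA factor of the PrE, had 1 DP peak in its window, at rank 9073 in an intron and nearest to Fdft1, and none in the SOX2+ libraries. No region of any class was nearest to Gata4 itself. Sox17, which maintains PrE, and Lama1, a laminin chain, had no peak among the strongest in any of the 4 libraries, and the full DP list held 4 and 2 there.

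Pluripotency genes held peaks in both populations with different members of a locus. Nanog had its strongest peak in a shared region (chr6:122701306-122706040) at ranks 275, 119 and 129 in DP, SOX2+ A and SOX2+ B (max 32, 27 and 29) and 57 in the library titled B_DP. Tfcp2l1, a naive pluripotency factor, was likewise shared (chr1:118640841-118653017), with max signals of 26, 21 and 26. Esrrb, an orphan nuclear receptor of naive cells, had 8, 11 and 10 peaks and 5 shared regions. Klf4 had 2, 1 and 2 peaks, with max signals of 16, 8 and 12. Pou5f1, which encodes OCT4, had 3 DP-only regions in its window and a shared one (chr17:35500963-35508103) with 20, 15 and 17. Of the DP-only regions, 1 was nearest to Pou5f1 and the others to H2-Q10.

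Fgf4, the epiblast signal that instructs the PrE, went the other way. It had no DP peak among the strongest, 3 and 4 peaks in the SOX2+ libraries (best max 20 and 14) and 2 in the library titled B_DP (best 12). Its stronger SOX2+-only region (chr7:144853300-144859157) had a DP peak of 7 at rank 16742, and the other (chr7:144862307-144865248) one of 6 at rank 28929, both outside the number used. Otx2, a formative epiblast factor, had 1 DP and 2 and 2 SOX2+ peaks. Dnmt3b, a DNA methyltransferase, had 4 DP, 0 and 1 SOX2+ peaks in its window, the DP-only ones being nearest to Commd7. Cdx2, the trophectoderm regulator, had no peak among the strongest in any of the 4 libraries. Dusp6, Spry4, Id1, Socs3, Cdkn1a and Cpt1a each had 1 to 6 DP peaks and 1 to 5 peaks in each SOX2+ library. Actb, encoding β-actin, had 6 DP peaks, 2 and 0 SOX2+ peaks and 5 DP-only regions, all 5 with H3K27ac in nEnd.

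DP-only regions were nearest to 2910 of 21829 protein-coding genes (13.3%), SOX2+-only regions to 1718 (7.87%) and shared regions to 4840 (22.2%). Of 25 PrE genes, 12 were nearest to a DP-only region, 4 to a SOX2+-only region and 2 of these to both. The PrE genes with DP-only regions included Gata6 (6 regions), Cubn, Lrp2 and Lamc1 (4 each), Pdgfra and Dab2 (3 each) and Amn, Col4a1, Col4a2, Sparc and Fgfr2 (1 each). Cubn and Lrp2 encode endocytic receptors of the visceral endoderm, and their strongest DP-only regions (chr2:13495582-13496753, rank 5359, and chr2:69582435-69583417, rank 5453) held GATA6 in DP cells and H3K27ac in nEnd. Fgfr1 (2) and Hnf4a (1) had SOX2+-only and no DP-only regions.

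Of 16 formative epiblast genes, 1 (Etv5) was nearest to a DP-only and 6 to a SOX2+-only region. Those 6 were Sox4 (3 regions) and Otx2, Dnmt3a, Lef1, Tcf15 and Etv4 (1 each). Of 25 general and naive pluripotency genes, 11 had a DP-only and 10 a SOX2+-only region, 7 had both, and 21 had a shared one. Tbx3 and Nr5a2 had 6 DP-only regions each, against 1 and 4 SOX2+-only ones. Zfp42, which encodes REX1, had 6 SOX2+-only and no DP-only region. The strongest DP-only regions of Nr5a2 (chr1:136972199-136975871, DP rank 1489) and Tbx3 (chr5:119597514-119599086, DP rank 1639) had peaks at ranks 550 and 409 of the library titled B_DP.

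Signalling lists held genes of both kinds. Of 13 FGF and ERK response genes, 10 had a DP-only and 5 a SOX2+-only region. Phlda1 led them (chr10:111583279-111584339, DP rank 938), followed by Spry2, a feedback inhibitor of receptor tyrosine kinases (chr14:105862020-105863309, rank 2574). Both held GATA6 and SOX2 in DP cells and H3K27ac in nEnd. Of 12 Wnt genes, 4 had a DP-only and 1 a SOX2+-only region. Dkk1, a secreted Wnt antagonist, led them (chr19:30516273-30517003, rank 476), with GATA6 and SOX2 in DP cells and H3K27ac in nEnd, and Tcf7l1, the Wnt repressor of ESCs, had 5 SOX2+-only and no DP-only regions. Of 13 Hippo and actin genes, 7 and 5 had such regions, with Tead1 and Yap1 at 7 and 4 SOX2+-only regions. For LIF and STAT3 the counts were 4 and 4 of 11, with Pim1 at 4 DP-only and the receptor genes Lifr and Il6st at 2 SOX2+-only regions each. For BMP and Nodal they were 1 and 1 of 14, Smad7 and Nodal.

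Among metabolic lists, fatty acid oxidation and lipid metabolism had 5 of 16 genes with a DP-only region and 0 with a SOX2+-only one. Among the 5 were the apolipoprotein gene Apoe (best DP rank 2656), the acyl-CoA dehydrogenase gene Acadm (3212), Fabp3 (4695) and Ppard (9280). Cpt1a, the entry enzyme of mitochondrial oxidation, was shared, with max signals of 23, 13 and 14. Oxidative phosphorylation had 2 and 2 of 15 genes, glycolysis and hypoxia 9 and 7 of 15, and p53 targets and cell death 2 and 2 of 14. Immediate early and heat shock genes had 5 and 1 of 13, with Fos, Jun, Atf3, Gadd45b and Hsph1 on the DP side and Jund on the other. Trophoblast genes had 3 and 1 of 12, neural genes 1 and 1 of 10, mesoderm and definitive endoderm genes 1 and 1 of 10, and 2-cell-like genes 0 and 1 of 9.

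Housekeeping genes, which were listed as a reference, had 4 and 2 of 15. Their 13 DP-only regions lay nearest to Actb and Hspa8 (5 each), Gapdh (2) and Eef2 (1), and a list with no lineage role was thus also above the share of all genes, on the DP side (26.7%) as on the SOX2+ side (13.3%). The median per gene of DP-only less SOX2+-only regions was 1 in the FGF and ERK list and 0 in the other 17, as over all genes. A nearest gene need not be the gene that a region acts on, and genes in wide intervals can be nearest to more regions, which was not measured.

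**Figure D5:**
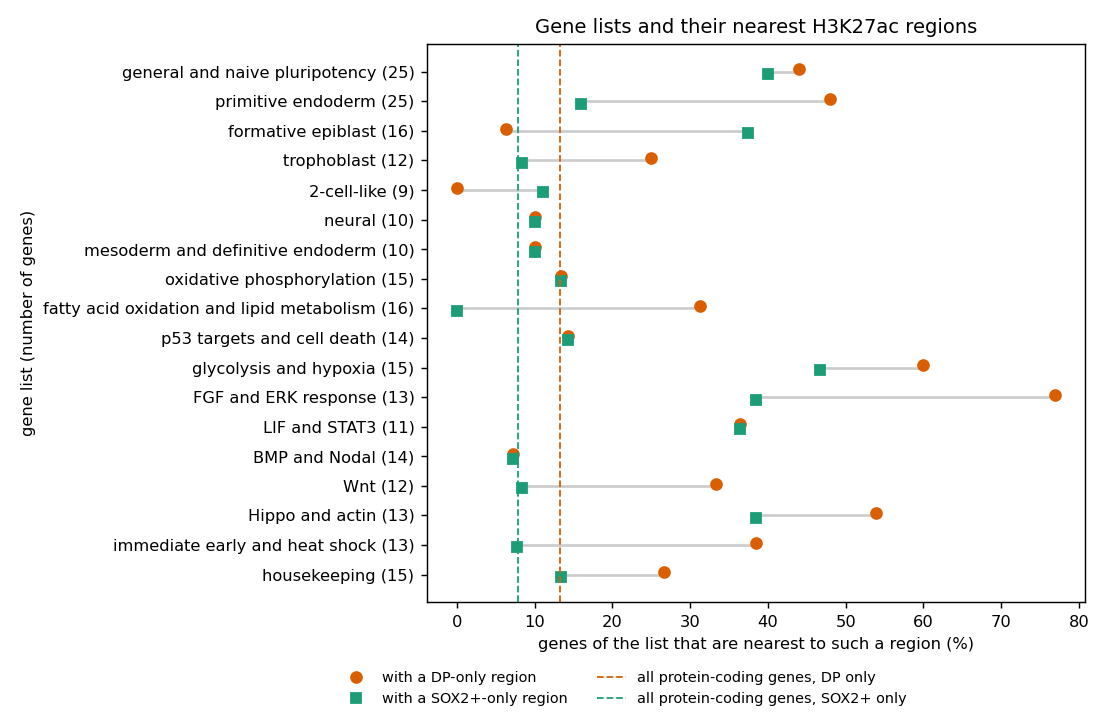
Percentage of the genes in each list (number of genes in brackets) that are the nearest protein-coding gene of at least 1 DP-only or SOX2+-only H3K27ac region. Dashed lines are the shares over all 21829 genes (13.3% and 7.87%). FGF and ERK response (10 and 5 of 13) and PrE (12 and 4 of 25) have more genes on the DP side, as have all genes and the housekeeping list (4 and 2 of 15). Formative epiblast (1 and 6 of 16) has more on the SOX2+ side.

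Most DP-only regions nearest to 1 gene were counted for Kifc3, a kinesin (12 DP-only, 1 SOX2+-only), followed by Jarid2, a partner of Polycomb repressive complex (10 and 10), and by Dync2h1 and Hs6st1 (9 and 0 each). Oxr1 and Rai14 had 8 and 1 each, and Anapc15-ps and Gm11084 had 7 and 1. Most SOX2+-only regions were counted for Etl4 (12 SOX2+-only, 0 DP-only), then Jarid2 (10), Rybp, also a Polycomb protein, and Tbl1xr1 (9 for either), Magi1 and Med13l (8 each), and Ankrd11 and Macf1 (7 each). Jarid2 was in both sets, with 17 shared regions.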

How the data were processed

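CUT&RUN libraries of sorted or cultured mouse ESCs were read as peak lists. The authors aligned reads to mm10 (GRCm38), called peaks with SEACR against IgG and deposited total signal and max signal (coverage) per peak, each on the scale of its library; read depth is unknown. The submitters' processing notes name Bowtie2 2.3.4.1, Picard 2.9.1, SAMtools 1.9, bedtools 2.27.1, cutadapt 1.18 and deepTools 3.2.0. The methods and the deposited lists differ on which SEACR mode, relaxed or stringent, served histone marks, so the mode is not settled.

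Chromosomes 1 to 19, X and Y were kept. The 13514 strongest H3K27ac peaks per library by max signal (ties by total signal) were merged at an overlap of at least 1 bp. A factor region of DP cells needed peaks of 2 of 3 libraries. Genes came from GENCODE M21 and sequences from RefSeq. Strings were counted on all chromosomes kept, and no sequence of chromosome 18 is printed. Strings were sought on both strands in 500 bp around the maximum. Named, apart from items not reported here, were the nearest genes of the 12 strongest DP-only, 12 strongest SOX2+-only and 6 strongest shared regions, the 8 genes with most regions of each kind, 24 fixed loci within 50 kb, and members of 18 gene lists (258 of 259 genes in the annotation), the strongest first, with others counted. Members and lists were chosen with earlier results of these data known. Samples lettered A, A1 and B are not stated to be separate cultures, and no test was made. Alternatives changed the ranking, peak number, overlap, distance to start sites, libraries and the place of the library titled B_DP. Minimum peak width and leaving out a GATA6 library were added after seeing the data. Overlap and nearest-gene steps were checked on simulated intervals. Python 3.11.15, numpy 2.4.6, pandas 2.3.3, scipy 1.17.1, pysam 0.24.0 and matplotlib 3.10.9 were used.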

Additional observations from a re-analysis of the deposited data

Results flagged for a closer look

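The H3K27ac library titled B_DP, which was kept apart from both populations because its labels conflict, overlapped GATA6 of DP cells at 5.93% of its peaks, above the 4.01% and 4.03% of the SOX2+ libraries and below the 9.09% of DP A. The difference was not tested.

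At equal peak numbers, a larger share of SOX2 peaks of DP cells lay at DP-only than at SOX2+-only regions in each of 3 libraries, with ratios of the shares from 1.69 to 4.29. SOX2 of SOX2+ cells had the opposite order in each of 3, with ratios from 0.421 to 0.597. With all deposited peaks, the ratios were 1.69 to 3.15 in DP cells and 1.04, 1.04 and 0.958 in SOX2+ cells (A, A1 and B), so the SOX2+ libraries had no common order. Counted per region, SOX2 of DP library B was present at 3.26% of DP-only and 3.37% of SOX2+-only regions, whose intervals overlap. The difference between the cells was not tested.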

How the results depend on the processing

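No paired test was made, since no result comes from a test, and libraries that share the letter A were compared as values only. Read depth limits all counts, since it is unknown and the DP list is the longest. The cause of each move below was not tested.

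DP-only regions numbered 55192 with all deposited peaks, 2070 with the stronger 50%, 1739 with peaks of at least 1 kb, and 947 (both) or 6508 (either) with the library titled B_DP as a second DP library. SOX2+-only regions numbered 364 with all peaks, 1408 with the stronger 50%, 1142 at equal covered bases, 9479 with a peak in either SOX2+ library, 333 when absent from the full DP list, and 1064 or 3785 with the library titled B_DP as a DP or a SOX2+ library. Leaving out a SOX2+ library gave 6150 to 6319. Shared regions numbered 14697 with all peaks, 4128 with the stronger 50% and 4520 at least 1 kb from start sites. Genes with a DP-only region numbered 5339 by start sites within 50 kb, 12894 with all peaks, 1658 with the stronger 50%, 1402 with peaks of at least 1 kb and 840 with the library titled B_DP required.

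The share of DP peaks at SOX2+ peaks was 27.6% with all peaks, 62.2% at equal bases, 73.6% by total signal, 67.4% at 50% overlap, 63.6% away from start sites, 79.4% with peaks of at least 1 kb, 71.4% or 78.0% with the library titled B_DP as DP or SOX2+, and 59.5% to 60.2% without a SOX2+ library. GATA6 at DP-only regions was 2.36% with all peaks, 21.3% with the stronger 50%, 13.8% at equal bases, 14.1% by total signal, 18.1% away from start sites, 19.8% with peaks of at least 1 kb, 8.06% at equal factor peaks, 21.3%, 10.1% or 13.8% with the library titled B_DP as DP in both, DP in either or SOX2+, and 7.29% to 15.1% without a library. GATA6 at SOX2+-only regions was 2.13% with the stronger 50%, 2.18% with peaks of at least 1 kb, 0.208% at equal factor peaks, 1.002% with either SOX2+ library, and 0.499% to 1.37% without a library. DP-only regions remained above SOX2+-only regions in each setting that gave both.

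H3K27ac of nEnd at DP-only regions was 22.6% with all peaks, 25.7% with the stronger 50%, 4.48% at equal bases, 36.7% by total signal, 27.5% away from start sites, 39.7% with peaks of at least 1 kb, 28.6% with the library titled B_DP as DP in either, 41.2% with all nEnd peaks, 49.2% with either clone, and 35.5% to 37.1% without a SOX2+ library. The share of DP GATA6 peaks at DP-only regions was 36.02% with all peaks, 25.1% at equal factor peaks, 10.4% with peaks of at least 1 kb, and 6.19% or 11.6% with the library titled B_DP as DP or SOX2+. The GATA string was found in 29.1% with all peaks, 38.4% with the stronger 50%, 32.7% by total signal, 39.5% away from start sites, 37.6% with peaks of at least 1 kb, 38.1% or 32.9% with the library titled B_DP as DP in both or either, 0.818 times per kb of whole region, and 32.5% to 33.5% without a SOX2+ library.

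The share of peaks of the library titled B_DP at DP less that at SOX2+ peaks was -4.42 percentage points. It turned to 29.5 with all peaks and 6.14 at equal bases, and was -11.5 with peaks of at least 1 kb, -0.585 by total signal, -6.67 away from start sites and -5.78 with the stronger 50%.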
